A study of Mus musculus with 2 samples.

Results

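The 55 genes that code for collagen chains (Col followed by a type number and a chain number) and laminin chains (Lama, Lamb and Lamc) were followed across the cells of mouse pancreatic islets. They are all the genes among 27998 in the count table whose symbol has this form, and all of them enter the counts. Of the 55 chains, 37 had at least 20 counted molecules in the cells kept, 16 had 1 to 19, and 2 had none. The measurement was droplet single-cell RNA sequencing, in which each molecule is counted once through its unique molecular identifier (UMI) at the 3' end of the transcript.

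Islets came from wild-type C57BL/6J mice, an inbred strain. A chow group of 4 mice and a group of 5 mice on a 60% high-fat diet (HFD) were fed for 6 weeks after weaning. The islets were hand-picked, cultured overnight and dispersed with 0.05% trypsin for 10 minutes before capture, so both groups share the culture and the enzyme step. Cells of all mice of a diet were pooled in 1 library, no label ties a cell to a mouse, and the values below therefore describe 2 libraries without a replicate check and without a test. The diet and the library cannot be told apart. All intervals are 95% intervals that cover counting error only.

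Collagens and laminins build the extracellular matrix. Sheets of laminin and type IV collagen form basement membranes, thin layers under endothelium and epithelium, while type I, III and V collagens form fibrils and type VI collagen forms beaded filaments between them. Each molecule is a trimer whose chains are made by the same cell, and in mouse islets most basement membrane lies along the capillaries, where endocrine cells touch it through integrins.

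The start sites of 3 chains on which the results turn, and of the partner of the first, are shown for their sequence. Col4a1 and Col4a2 code for the 2 chains that form the common type IV collagen, and their genes stand head to head on chromosome 8. Their windows, from 250 bases before to 50 bases after each annotated start, overlap by 78 bases, given in capitals. RefSeq (GRCm38.p6) places the Col4a1 window at chr8:11312777-11313076 on the minus strand and the Col4a2 window at chr8:11312555-11312854 on the plus strand, both written 5′ to 3′ along the gene.
Col4a1: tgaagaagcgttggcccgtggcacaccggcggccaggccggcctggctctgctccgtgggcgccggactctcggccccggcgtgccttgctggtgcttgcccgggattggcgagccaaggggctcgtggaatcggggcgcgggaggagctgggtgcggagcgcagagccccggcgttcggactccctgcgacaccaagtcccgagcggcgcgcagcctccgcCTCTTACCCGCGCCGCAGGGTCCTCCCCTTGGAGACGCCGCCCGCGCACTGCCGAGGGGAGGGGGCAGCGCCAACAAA
Col4a2: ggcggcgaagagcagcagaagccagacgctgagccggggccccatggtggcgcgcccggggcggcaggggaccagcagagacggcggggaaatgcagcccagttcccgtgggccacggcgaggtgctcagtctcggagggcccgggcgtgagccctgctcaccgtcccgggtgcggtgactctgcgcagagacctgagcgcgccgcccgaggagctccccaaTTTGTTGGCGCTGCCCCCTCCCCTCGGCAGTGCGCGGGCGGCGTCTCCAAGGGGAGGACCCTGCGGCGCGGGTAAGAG

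Col13a1 codes for a collagen anchored in the cell membrane, and Col6a6 for an alternative long chain of type VI collagen. They were the chains most restricted to endothelial cells and to beta cells, as the values by class show. In their windows the capitals mark the letters GGGCGG or TATAAA, read on both strands. The Col13a1 window lies at chr10:61979059-61979358 on the minus strand and the Col6a6 window at chr9:105828036-105828335 on the minus strand.
Col13a1: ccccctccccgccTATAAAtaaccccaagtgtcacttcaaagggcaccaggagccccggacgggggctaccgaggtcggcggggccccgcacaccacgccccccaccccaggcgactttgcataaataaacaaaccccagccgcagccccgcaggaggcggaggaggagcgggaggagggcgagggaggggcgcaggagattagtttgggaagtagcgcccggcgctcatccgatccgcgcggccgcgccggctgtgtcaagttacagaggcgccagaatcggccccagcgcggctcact
Col6a6: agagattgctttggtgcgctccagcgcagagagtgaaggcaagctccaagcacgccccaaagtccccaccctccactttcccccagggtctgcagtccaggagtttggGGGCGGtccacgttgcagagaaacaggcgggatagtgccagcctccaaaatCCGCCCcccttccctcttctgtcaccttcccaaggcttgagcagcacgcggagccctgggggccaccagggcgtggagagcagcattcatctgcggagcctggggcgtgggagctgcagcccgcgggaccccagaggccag

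GGGCGG was found 1 time in the Col4a1 window, 3 times in the Col4a2 window, 2 times in the Col6a6 window and not in the Col13a1 window. Over all 32851 windows of this length in the table, 35.7% held GGGCGG and 13.6% held TATAAA, which the Col13a1 window held 1 time. RefSeq windows were used for 40 of the 55 chains, with any chain window on 1 chromosome left out. Of the chains led by endothelial cells that have a window, 4 of 8 held GGGCGG, and of those led by mesenchymal cells 10 of 13 held it. CCAAT, present in 37.4% of all windows, stood in 3 of the 8 and in 5 of the 13.

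The chow library held 6509 barcodes with 89292222 UMIs and the HFD library 4539 with 68544729. After filters, 6110 chow and 4188 HFD cells were kept. Cells were classed by a fixed order of rules on marker counts, so a class name stands for cells that met its rule. There were 4369 chow and 2953 HFD beta cells, 743 and 376 alpha cells, 171 and 120 endothelial cells, and 35 and 50 mesenchymal cells. The median UMI count was 7211 and 6508.5 per endothelial cell, and 6389 and 7476.5 per mesenchymal cell, against 14646 and 16696 per beta cell. The 10 endothelial markers, 3 of which make the rule, were summed at 15163 and 18380 CPM in the endothelial class and at 273 and 333 CPM in the mesenchymal class. There 6 of 10 were detected in the chow and 7 of 10 in the HFD library, in 29 of 35 and 43 of 50 cells, with Kdr, Pecam1 and Tie1 at 0 in both. Few cells lay near the cuts: 11 chow and no HFD endothelial cells had 10 to 14 marker UMIs, 5 mesenchymal cells in each library had 5 or 6, and 49 cells in each library had 15 to 25% insulin UMIs. Insulin UMIs, which these cells should lack, made up a median of 2.10 and 2.14% per endothelial cell and of 2.59 and 2.23% per mesenchymal cell. The libraries shared 45 deposited barcode sequences, 41 of them among the kept cells.

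Vascular cells carried the matrix chains at a level far above that of endocrine cells. The 55 chains together made up 2871 CPM (counts per 1000000 UMIs of a class, a 3' end count that is not scaled by transcript length) in chow endothelial cells and 3783 CPM in HFD endothelial cells. The mesenchymal class held 2401 and 3538 CPM. Beta cells held 47.8 and 61.7 CPM and alpha cells 48.2 and 37.8 CPM. Because beta cells were so many, they still held 36.0% of the chain UMIs of the chow library and 32.4% of those of the HFD library, against 46.0% and 40.9% for endothelial cells. The class with the highest CPM over both libraries was mesenchymal for 17 of the 37 chains, endothelial for 10, delta for 4, beta for 2, alpha for 2, PP (pancreatic polypeptide cells) for 1 and macrophage for 1. In 32 of the 37 the leading class was the same in each library. The exceptions were Col18a1, Col4a4, Col28a1, Col8a2 and Lamb3, of which only Col18a1 had more than 36 UMIs. Some leads rested on very few UMIs. Endothelial cells, which led Col28a1, gave 3.85% of its 26 UMIs, and PP cells, which led Lamb3, gave 5% of its 20.

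**Figure D1:**
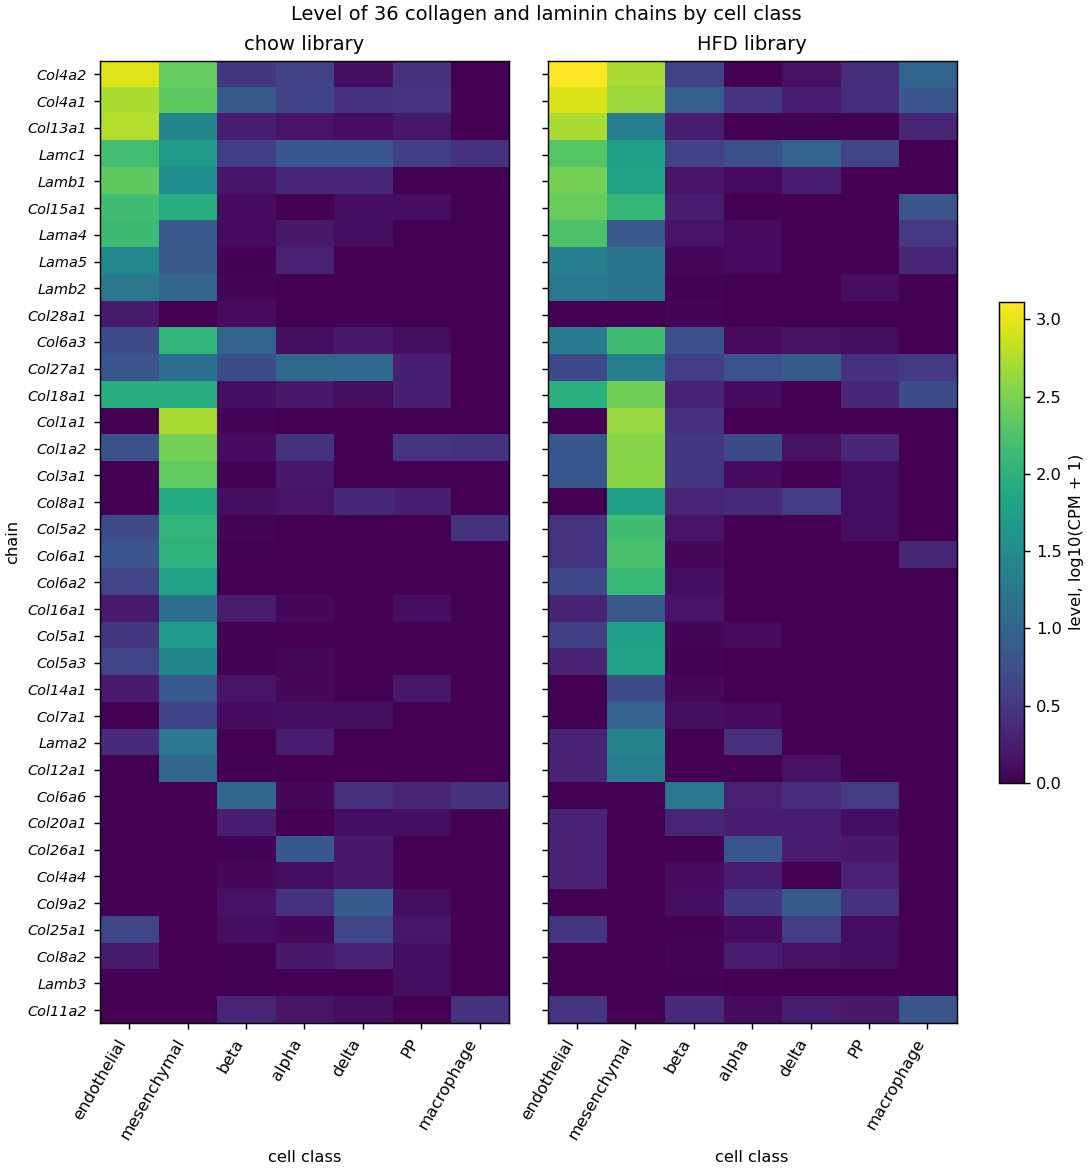
Level of 36 of the 37 chains with at least 20 UMIs (rows) in 7 cell classes (columns) of the chow and the HFD library, as the log10 of CPM plus 1. Chains are ordered by leading class, and the bright blocks are the endothelial set headed by Col4a2 (1071 CPM over both libraries) and the mesenchymal set with Col1a1 (460 CPM).

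Of the 55 chains, Col4a2 and Col4a1 of type IV collagen were the most counted in the endothelial class over both libraries. In the chow library alone Col13a1, at 592 CPM, stood above Col4a1. Col4a2 was at 912 CPM in the chow library and at 1295 CPM in the HFD library. Col4a1 was at 537 CPM in the chow library, with an upper bound of 577, and at 868 CPM (812 to 928) in the HFD library. The median endothelial cell held 4 Col4a1 and 6 Col4a2 UMIs in the chow library and 6 and 9 in the HFD library. Nearly every endothelial cell carried these chains: Col4a1 was counted in 161 of 171 chow and 118 of 120 HFD cells. Endothelial cells gave 78.2% of all Col4a2 UMIs and 58.0% of all Col4a1 UMIs. The other type IV chains, which replace this pair in specialised membranes, were scarce: Col4a4 had 36 UMIs, Col4a5 13, Col4a6 2 and Col4a3 1.

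Col13a1 was the chain most restricted to endothelial cells. It was at 592 CPM (553 to 633) in the chow library and at 527 CPM (483 to 573) in the HFD library, and mesenchymal cells held 25.7 and 19.2 CPM. Of its 1506 UMIs, 91.8% came from endothelial cells.

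The laminin chains of vessels formed the next endothelial group. A laminin joins an alpha, a beta and a gamma chain. Lama4, the alpha chain of vascular laminin, was at 135 and 174 CPM in endothelial cells and at 6.43 and 6.40 CPM in mesenchymal cells. Lamb1, the widespread beta chain, was at 219 and 287 CPM, and Lamc1, the common gamma chain, at 153 and 196 CPM. Lama5, an alpha chain of mature vessels and epithelia, was lower at 27.3 and 21.6 CPM, and Lamb2 stood at 16.1 and 16.7 CPM. Lama2, an alpha chain known from muscle and nerve, was led by mesenchymal cells at 20.5 CPM over both libraries on 34 UMIs in all classes. Lama1 had 2 UMIs, Lama3 12 and Lamc3 2.

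Col15a1 and Col18a1 code for the multiplexins, collagens that carry heparan or chondroitin sulphate chains at basement membranes, and Col18a1 is the source of endostatin. Col15a1 was higher in endothelial cells, at 141 and 246 CPM, than in mesenchymal cells, at 86.8 and 117 CPM. Col18a1 was at 91.7 and 93.2 CPM in endothelial cells and at 86.8 and 277 CPM in mesenchymal cells, so its leading class was endothelial in the chow library and mesenchymal in the HFD library. The 2 classes had overlapping intervals in the chow library (76.6 to 109 and 57.2 to 126 CPM) and not in the HFD library (75.4 to 114 and 232 to 329 CPM). The annotation places Slc19a1 on the opposite strand across part of Col18a1, and whether counting used the strand is not given in the sources used here. Slc19a1 had 0 UMIs in endothelial cells and 16 in mesenchymal cells.

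**Figure D2:**
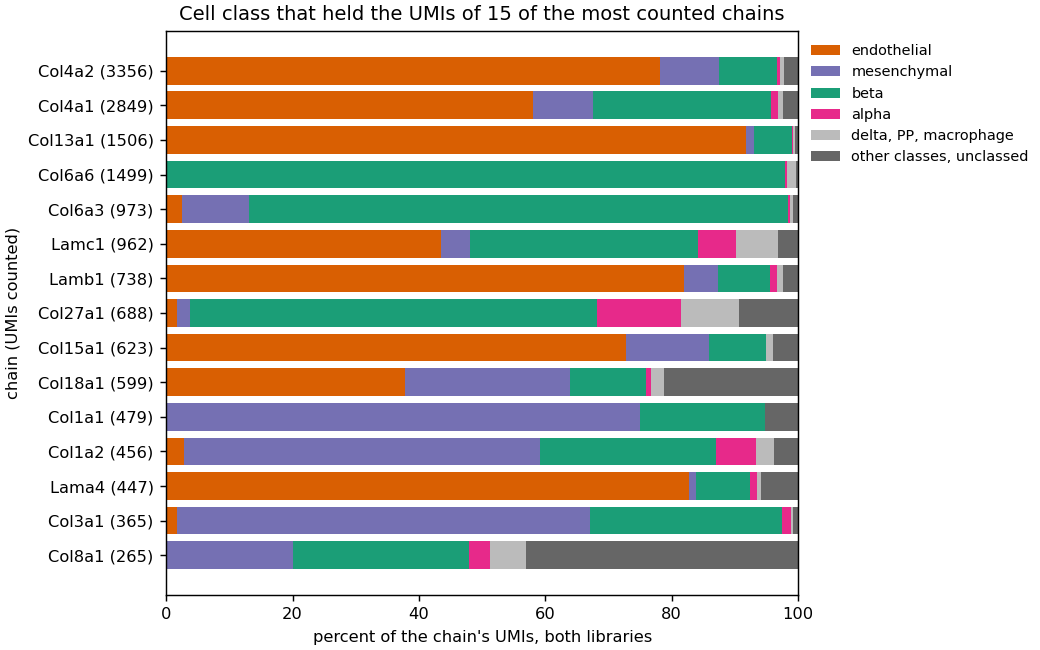
Share of the UMIs of 15 of the 16 most counted chains that came from each cell class, both libraries together, with the number of UMIs beside each name. Bars for Col4a2, Col13a1, Lamb1 and Lama4 are mostly endothelial, whereas those for Col6a6 (97.9%) and Col6a3 (85.4%) are mostly beta.

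Fibrillar collagens belonged to the mesenchymal class. Col1a1 and Col1a2, the chains of type I collagen, were at 511 and 289 CPM in chow mesenchymal cells and at 427 and 356 CPM in HFD mesenchymal cells. Col3a1, the only chain of type III collagen, was at 225 and 360 CPM. No Col1a1 UMI was counted in the endothelial class, which allows up to 2.10 CPM in the chow and 2.94 CPM in the HFD library at the limit of 3 counts. Col5a1, Col5a2 and Col5a3, chains of the type V collagen that nucleates fibrils, were at 55.1, 132 and 48.7 CPM over both libraries in mesenchymal cells and between 2.45 and 3.27 CPM in endothelial cells. Of the 11 fibrillar chains, 8 had at least 20 UMIs, and mesenchymal cells led 7 of them. Col11a1 had 15 UMIs, Col24a1 1 and Col2a1 0.

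The chains of type I and III collagen were counted in fewer mesenchymal cells than Col4a1 and Col4a2. Col1a1 was counted in 12 of 35 chow and 11 of 50 HFD mesenchymal cells, and the median cell held 0. Col1a2 was counted in 12 and 19 cells, and Col3a1 in 19 and 20, with a median of 1 UMI per chow and 0 per HFD cell. Col4a1 was counted in 27 and 45 cells, with a median of 1 and 3, and Col4a2 in 27 and 50. In the HFD library a single cell with 28132 UMIs held 294 of the 536 UMIs of Col1a1, Col1a2 and Col3a1 in the class, or 54.9%. In the chow library the richest cell held 67 of 319.

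Cells of the mesenchymal class were split by whether they held more UMIs of the fibroblast genes Pdgfra, Dcn and Lum or of the pericyte genes Rgs5, Cspg4 and Notch3. Pericytes wrap capillaries and fibroblasts fill the tissue between. The chow library had 14 fibroblast-leaning and 17 pericyte-leaning cells of 35, and the HFD library 7 and 39 of 50, with 4 cells leaning neither way in each. Over both libraries, Col18a1 was 6.11-fold higher in pericyte-leaning cells (332 against 54.4 CPM), Col4a2 3.64-fold higher (593 against 163 CPM) and Col4a1 2.17-fold higher (464 against 214 CPM). These sums mix libraries in different shares, and within each library the folds were smaller. For Col18a1 they were 4.26 (1.76 to 11.3) in the chow and 5.25 (2.58 to 12.4) in the HFD library, and for Col4a2 2.84 (1.69 to 4.86) and 3.30 (2.12 to 5.38). Col4a1 was at 1.34 (0.758 to 2.32) in the chow library, which includes equal levels, and at 2.04 (1.37 to 3.13) in the HFD library. Over both libraries Col5a3 was 5.68-fold higher in fibroblast-leaning cells (interval 2.43 to 15.4), on 28 and 7 UMIs, of which the chow library held 6 and 2, too few to separate the leanings there. Col5a1 was 2.44-fold higher (1.21 to 5.09), with 13 and 0 UMIs in the chow library and an HFD fold of 2.26 (0.929 to 5.36). Col1a1 was at 646 CPM in fibroblast-leaning and 280 CPM in pericyte-leaning cells, with 105 of the 117 UMIs of the latter in the richest HFD cell. Col15a1, Col6a1, Lamb1 and Lamc1 had intervals of this ratio that included equal levels.

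**Figure D3:**
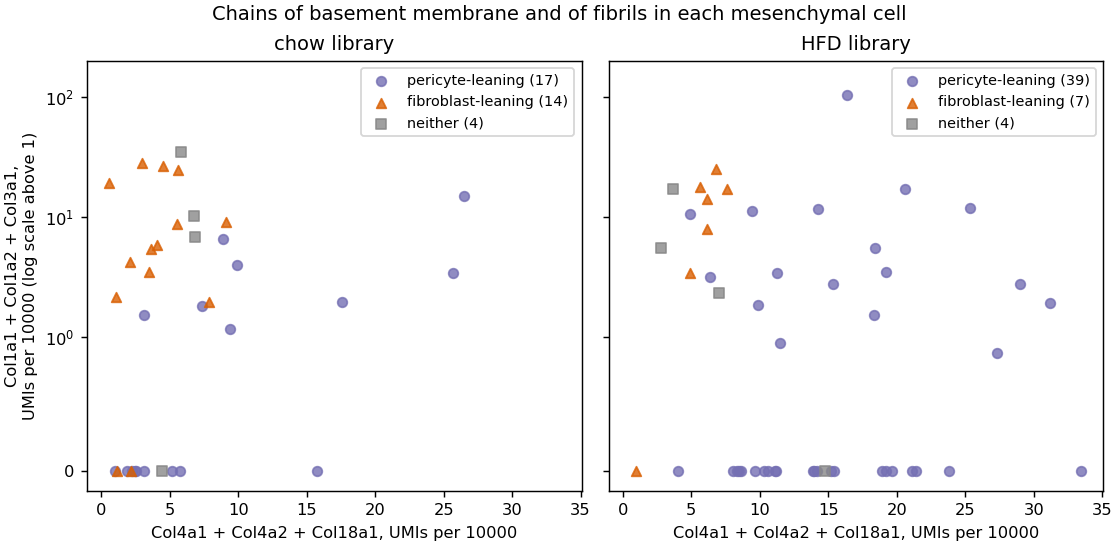
Each point is 1 mesenchymal cell, by its UMIs of Col4a1, Col4a2 and Col18a1 per 10000 UMIs (horizontal) and of Col1a1, Col1a2 and Col3a1 per 10000 UMIs (vertical, log scale above 1), for 35 chow and 50 HFD cells. Pericyte-leaning cells (circles) reach further right, many with no fibrillar UMI, and the cell at 105 per 10000 in the HFD library is the one that held 294 fibrillar UMIs.

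Type VI collagen was split between cell types by chain. Col6a1 and Col6a2, whose genes are neighbours on chromosome 10, were at 140 and 98.7 CPM over both libraries in mesenchymal cells and at 0.0857 and 0.137 CPM in beta cells. Col6a3, the third chain of the usual trimer, was at 132 CPM in mesenchymal cells and at 7.12 CPM in beta cells. In beta cells that met no vascular rule, 584 Col6a3 UMIs stood against 1 Col6a1 UMI in the chow library, and 227 against 1 in the HFD library. In mesenchymal cells the ratio of Col6a3 to Col6a1 was 1.09 (0.658 to 1.82) and 0.883 (0.628 to 1.24). Mesenchymal cells thus held both chains in near equal numbers, and beta cells held Col6a3 nearly without Col6a1.

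Col6a6 was a beta-cell chain. It was at 9.76 CPM (9.03 to 10.5) in chow and 16.4 CPM (15.3 to 17.6) in HFD beta cells, and 97.9% of its 1499 UMIs came from that class. No Col6a6 UMI was counted in endothelial or mesenchymal cells of either library, which allows up to 2.10 and 2.94 CPM in the former and 9.64 and 6.40 CPM in the latter. Alpha cells held 0.157 and 0.957 CPM, delta cells 1.60 and 1.49 CPM, and PP cells, the next class over both libraries, 1.17 and 2.48 CPM. It was spread over many cells: 595 of 4369 chow beta cells (13.6%) and 654 of 2953 HFD beta cells (22.1%) held at least 1 UMI. With each cell thinned to 3500 UMIs, which left out no kept cell, the shares were 3.82% and 6.37%, against 0 of 171 and 0 of 120 endothelial cells. Its neighbours on chromosome 9, the related genes Col6a5 and Col6a4, had 17 and 12 UMIs in all cells.

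Beta cells held Lamc1 with little of the vascular beta and alpha chains. Lamc1 was at 2.98 CPM over both libraries in beta cells, 5.51 CPM in alpha cells and 7.06 CPM in delta cells. The ratios given here are for beta cells only. In beta cells that met no vascular rule Lamb1 stood at 0.0867 per Lamc1 UMI (0.0475 to 0.147) in the chow and 0.0816 (0.0412 to 0.147) in the HFD library, against 1.43 (1.20 to 1.71) and 1.46 (1.22 to 1.76) in endothelial cells. Lama4 stood at 0.0405 and 0.0544 per Lamc1 UMI in those beta cells, and at 0.881 and 0.885 in endothelial cells.

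Type IV collagen in beta cells had the same imbalance. Col4a1 was at 6.46 CPM (5.86 to 7.10) and 7.46 CPM (6.72 to 8.26), above the 1.60 and 0.745 CPM of delta cells. In endothelial cells the ratio of Col4a1 to Col4a2 was 0.589 (0.538 to 0.645) and 0.670 (0.615 to 0.731), and in mesenchymal cells 0.932 and 0.847. In beta cells that met no vascular rule it was 6.63 (5.01 to 8.92) and 7.97 (5.73 to 11.4). These intervals did not overlap those of endothelial cells. A gene on the opposite strand inside Col4a1, Gm15418, had 22 UMIs in beta cells against 803 for Col4a1. On the same strand, the annotation has Gm44716 overlap Col4a1, Gm36970 overlap Col6a3 and Gm38009 overlap Lamc1. None of these was in the count table, and their part in the beta-cell counts was not tested.

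Other chains were spread thinly over endocrine cells. Col27a1, a fibrillar collagen of cartilage, was at 11.0 and 5.26 CPM in alpha cells, 10.6 and 7.08 CPM in delta cells and 4.52 and 2.81 CPM in beta cells. Mesenchymal cells led it at 17.9 CPM over both libraries, yet beta cells gave 64.4% of its 688 UMIs. Col26a1 was an alpha-cell chain at 6.30 and 5.74 CPM, with 79.0% of its 81 UMIs from alpha cells and 0.0744 and 0.0404 CPM in beta cells. Col9a2, a chain of the fibril-associated type IX collagen, was at 6.73 and 6.70 CPM in delta cells and at 1.89 and 2.15 CPM in alpha cells. Its partner Col9a3 had 12 UMIs and Col9a1 had 0. Col25a1, a membrane collagen of neurons, was at 3.53 and 2.61 CPM in delta cells. Over both libraries it stood at 3.10 CPM there and at 2.86 CPM in endothelial cells, and beta cells gave 42.9% of its 56 UMIs. Beta cells gave 88.8% of the 160 UMIs of Col11a2, 88.6% of the 123 of Col20a1, 81.1% of the 90 of Col16a1, 78.8% of the 52 of Col14a1 and 77.3% of the 44 of Col7a1, at levels of 0.291 to 1.22 CPM. The level of Col16a1, Col14a1 and Col7a1 was nonetheless highest in mesenchymal cells, at 8.97, 5.13 and 6.41 CPM over both libraries. That of Col11a2 was highest in macrophages at 4.22 CPM. These leads rested on few UMIs. Mesenchymal cells gave 7.78% of the UMIs of Col16a1, 7.69% of those of Col14a1 and 11.4% of those of Col7a1. Macrophages gave 3.75% of those of Col11a2.

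Lamb3, a beta chain of epithelial laminin, had 20 UMIs in all, 55.0% of them from the few ductal cells, and it overlaps G0s2 and Hsd11b1 on the opposite strand. Scarcest otherwise were Col8a2 with 25 UMIs, Col28a1 with 26 and Col12a1 with 24, the last led by mesenchymal cells at 15.4 CPM. Below 20 UMIs were Col6a5, Col11a1, Col4a5, Lama3, Col9a3, Col6a4, Col10a1 (7), Col19a1 (4), Lamc3, Col4a6, Lama1, Col17a1 (2), Col23a1 (2), Col4a3, Col22a1 (1) and Col24a1. No UMI of Col2a1 or Col9a1 was counted in the 10298 kept cells.

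The diet comparison asked which chains differed between the HFD and the chow library within a class. Values are log2 ratios of CPM, with 0.5 counts added to each sum, relative to the median log2 ratio of all genes with at least 50 UMIs in the class. That median was 0.05 in endothelial, -0.06 in mesenchymal and 0.20 in beta cells.

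In endothelial cells 6 chains of the basement membrane were higher in the HFD library, with intervals above 0, as had 10.4% of 5751 genes. Col15a1 led with a relative log2 ratio of 0.75 (0.48 to 1.03), followed by Col4a1 at 0.64 (0.50 to 0.78) and Col4a2 at 0.46 (0.35 to 0.57). Lamb1, Lama4 and Lamc1 stood at 0.34, 0.31 and 0.31, with lower bounds of 0.10, 0.01 and 0.02. The 10 endothelial markers of the class, summed, stood at 0.23 (0.20 to 0.26), and the 7 that are not in its rule at 0.14 (0.10 to 0.17), and their part in these ratios was not tested. Col13a1 was lower at -0.22 (-0.38 to -0.06), the 1 chain with an interval below 0, as had 10.9% of the genes, and the intervals of Col18a1 at -0.02 and Lama5 at -0.37 included 0. Of the 9 chains with at least 50 UMIs, 6 were above the all-gene median and their own median was 0.31. None was past 2-fold, where 0.922% of 5751 genes were past it higher and 1.15% lower. The other 46 chains did not reach the minimum. Leaving out the richest cell of a library for each chain kept Col15a1 between 0.66 and 0.84, Col4a1 between 0.61 and 0.66 and Col4a2 between 0.44 and 0.48. Markers of pericytes and smooth muscle were summed at 313 and 252 CPM in the class, all 7 of 7 detected, and those of fibroblasts at 13.99 and 0 CPM, 2 of 6 and 0 of 6 detected, with Pdgfra and Col1a1 at 0 in both. Without the 14 chow and 6 HFD cells that also met the mesenchymal rule, the 6 chains kept their direction, with Col15a1 at 0.77, Col4a1 at 0.71 and Col4a2 at 0.54.

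**Figure D4:**
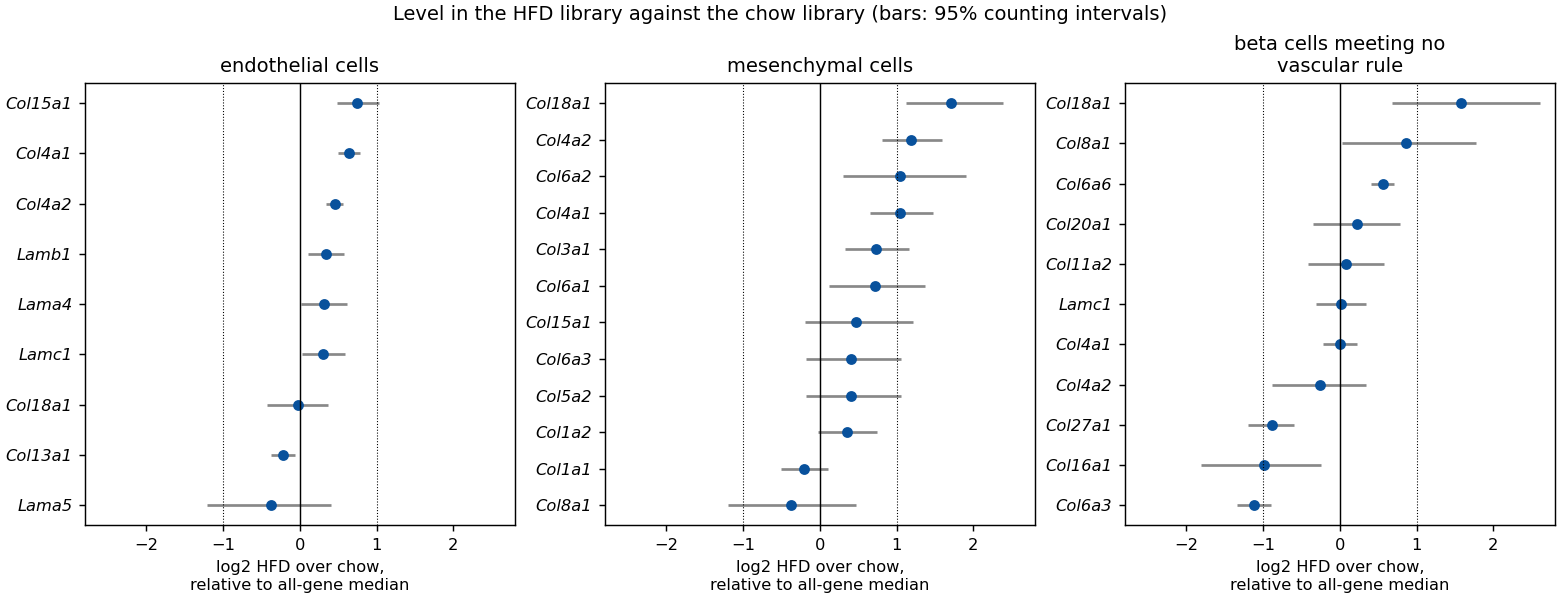
Relative log2 ratio of HFD over chow for chains with at least 50 UMIs in endothelial, mesenchymal and beta cells (the last with 11 of 12 chains, and without cells that met a vascular rule), with 95% counting intervals as bars and dotted lines at 2-fold. Col15a1, Col4a1 and Col4a2 lie right of 0 in endothelial cells, Col18a1 lies furthest right in mesenchymal cells at 1.71, and Col6a3 furthest left in beta cells at -1.11.

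In mesenchymal cells 4 of 12 chains were past 2-fold higher in the HFD library, where 2.92% of 2123 genes were, and none was past 2-fold lower, where 2.87% were. Col18a1 stood at 1.71 (1.12 to 2.39), Col4a2 at 1.19 (0.81 to 1.59), Col4a1 at 1.05 (0.65 to 1.47) and Col6a2 at 1.05 (0.31 to 1.90). Col6a2, with 19 chow and 58 HFD UMIs, reached the minimum of 50 only through the HFD library. The median of the 12 was 0.60. Col18a1 was counted in 13 of 35 chow and 40 of 50 HFD cells. Without the richest fibrillar cell of each library, 2 of 11 were past 2-fold, where 2.16% of 1993 genes were higher: Col18a1 at 1.72 and Col4a2 at 1.06, with Col4a1 at 0.96 and Col6a2 at 0.94. With plain CPM ratios the count was also 2, a setting for which the share of all genes was not computed.

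The makeup of the class differed between the libraries. Pericyte-leaning cells were 48.6% of the chow class (31.4 to 66.0%) and 78.0% of the HFD class (64.0 to 88.5%), and summed fibroblast markers were 1678 and 840 CPM with 6 of 6 detected in each. Within pericyte-leaning cells alone, Col18a1 was at 187 CPM in the chow and 376 CPM in the HFD library, a relative ratio of 1.03 (0.35 to 1.87), Col4a1 was at 1.12 (0.52 to 1.82) and Col4a2 at 0.72 (0.24 to 1.27). Ratios within a leaning are relative to the all-gene median of the whole mesenchymal class, not of the leaning. Col6a2, the other chain past 2-fold in the class, stood at 0.30 (-0.67 to 1.52) in pericyte-leaning cells and at 0.08 there without the richest cell, so its call did not hold in them. In fibroblast-leaning cells Col6a2 was higher in the HFD library at 1.81 (0.48 to 3.40), on 7 chow and 15 HFD UMIs. Col18a1, Col4a1 and Col4a2 were also higher in the pericyte-leaning cells without the richest cell, at 1.14, 1.03 and 0.71. Within fibroblast-leaning cells Col4a1 stood at 0.54 (-0.23 to 1.29) and Col4a2 at 0.53 (-0.37 to 1.40), so the sign was kept and equal levels lay within the interval. Markers of ductal cells were summed at 6232 and 10939 CPM in the mesenchymal class, 3 of 5 detected with Krt19 and Muc1 at 0, and their part in the result was not tested.

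Fibrillar chains of mesenchymal cells turned on single cells. Over all cells Col3a1 was at 0.73 (0.33 to 1.16), Col1a2 at 0.35 (-0.02 to 0.74) and Col1a1 at -0.21 (-0.51 to 0.10). Without the richest cell of each library these became 0.02 for Col3a1, -0.97 (-1.48 to -0.47) for Col1a2 and -0.82 (-1.23 to -0.42) for Col1a1. Col8a1, a network collagen, went from -0.38 (-1.20 to 0.47) on 25 chow and 28 HFD UMIs to -2.14 on 25 and 8. Over all cells Col8a1 reached the minimum count only through the chow library, and without the richest cells it was under it. No direction is therefore drawn for Col1a2, Col3a1 or Col8a1. Within fibroblast-leaning cells without the richest cell Col1a1 was at 535 and 537 CPM.

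In beta cells 6 of 18 chains (Col3a1, Col1a1, Col1a2, Col8a1, Col18a1 and Col15a1) were past 2-fold higher, where 0.939% of 12242 genes were, and 1 was past 2-fold lower, where 2.21% were. All 6 reached the minimum of 50 UMIs only through the HFD library, in which they were high, so nothing is read from that count. A single HFD cell held most UMIs of 3 of them. It had 46489 UMIs, 21.8% insulin UMIs, just above the beta rule, and met the mesenchymal rule as well, and it held 284 of the 305 Col1a1, Col1a2 and Col3a1 UMIs of HFD beta cells. Col3a1 had 3 chow and 108 HFD UMIs, Col1a1 8 and 87, and Col1a2 17 and 110. In all, 10 chow and 6 HFD beta cells met the endothelial rule, and 3 and 1 met the mesenchymal rule. Without these, Col1a1 went from 3.61 to -0.67 on 8 chow and 4 HFD UMIs, and Col1a2 from 2.90 to -0.13 on 17 and 13. Both chains were then under the minimum, with intervals that included 0. With such cells left out 2 of 12 chains were past 2-fold: Col18a1 stood at 1.58 (0.69 to 2.62) on 14 and 36 UMIs, where 0.797% of 12164 genes were higher, but it too reached the minimum only through the HFD library, and Col6a3 was lower at -1.11 (-1.34 to -0.89), where 2.24% were lower. Slc19a1, on the opposite strand across part of Col18a1, had 286 UMIs in beta cells, and its part in the Col18a1 value was not tested.

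Among chains spread over many beta cells, Col6a6 was higher in the HFD library at 0.56 (0.41 to 0.71), and Col6a3 and Col27a1 were lower. Col6a3 was at 8.72 CPM (8.03 to 9.46) in chow and 4.61 CPM (4.03 to 5.25) in HFD beta cells that met no vascular rule. Col27a1 was at 4.51 and 2.78 CPM there, a relative ratio of -0.89 (-1.19 to -0.60), and was lower in alpha cells too at -1.03 (-1.81 to -0.34), the only chain of 4 in that class past 2-fold, where 1.22% of 8927 genes were lower. Delta cells gave -0.64 (-1.55 to 0.20) on 33 chow and 19 HFD UMIs, but Col27a1 reached the minimum there only through the chow library. Col16a1 was at -0.98 (-1.81 to -0.24) on 50 chow and 21 HFD UMIs, but it reached the minimum only through the chow library. Col4a1 at 0.00 (-0.22 to 0.22) and Lamc1 at 0.01 (-0.31 to 0.34) had intervals that included equal levels. Col6a6 and Col6a3, both chains of type VI collagen, lay on opposite sides of 0 in beta cells.

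Genes that act on the chains were taken from 4 lists. Among basement membrane and matrix glycoproteins, 6 of 20 reached the minimum in endothelial cells, with 4 above and 2 below the all-gene median and 1 past 2-fold lower. Mgp, an inhibitor of calcification, was at 2026 and 788 CPM (relative ratio -1.41), Sparc, which binds collagen, at 4323 and 4402 CPM (-0.02), and Nid2, a linker of laminin to type IV collagen, at 0.75 (0.42 to 1.09). In mesenchymal cells 10 reached it, 4 above and 6 below, 3 past 2-fold lower. Mgp was at 15684 and 22886 CPM (0.60), Sparc at -0.30 and Nid1, the relative of Nid2, at 0.98 (lower bound 0.11). Lum, a proteoglycan of fibroblasts and a gene of the leaning rule, was at -1.58. Lum, on 46 chow and 22 HFD UMIs, reached the minimum only through the chow library. Nid1, on 14 and 41, reached it only through the HFD library. In beta cells 8 reached it and 1 was past 2-fold higher, namely Mgp at 9.72 and 34.4 CPM (1.62). In beta cells that met no vascular rule Mgp was at 7.41 and 11.6 CPM (0.45, 0.27 to 0.62), and none of 6 was past 2-fold. Emilin1, an elastic fibre glycoprotein, stood at -0.37 over all beta cells.

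Genes of collagen making stood on both sides of the median in endothelial cells. Of 12 counted, 6 stood above and 6 below, with none past 2-fold and a median of -0.04. Serpinh1, the collagen chaperone HSP47, was at 793 and 668 CPM (-0.30, -0.44 to -0.16), and Ppib, a prolyl isomerase of the endoplasmic reticulum, at -0.22 (-0.41 to -0.03). The highest ratio was that of Bmp1, a procollagen protease, at 0.88 (0.17 to 1.62), and the lowest that of Fkbp10, another prolyl isomerase, at -0.51 (-1.14 to 0.07). In mesenchymal cells 7 were counted, with a median of -0.07. Serpinh1 stood at -0.09, Ppib at 0.09 and P4hb at 0.15, all with intervals that included 0. Pcolce, an enhancer of that protease, at -1.19 (upper bound -0.42) was the 1 past 2-fold lower. With 38 chow and 24 HFD UMIs, Pcolce reached the minimum only through the chow library, so nothing is read from that call. In beta cells 14 were counted, and Ppib at -1.43 was the 1 past 2-fold lower, as it was in beta cells that met no vascular rule (-1.46). P4hb, a subunit of prolyl hydroxylase, stood at -0.18 and Pcolce, on 26 chow and 33 HFD UMIs, was highest at 0.58 (-0.20 to 1.39). Pcolce reached the minimum in beta cells only through the HFD library, so nothing is read from that rank.

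Receptors stood mostly above the median in endothelial cells, 8 of 10, with none past 2-fold. Itga6, a laminin receptor chain, was at 74.9 and 139 CPM (0.85, 0.47 to 1.22), and Itgb1, its partner, at 0.37 (0.14 to 0.60). Bcam, a receptor of Lama5, was at -0.84 (-1.84 to 0.04). With 37 chow and 15 HFD UMIs, Bcam reached the minimum only through the chow library. Of 5 counted in mesenchymal cells, 3 stood above, with Itgb1 at 0.56 and Itgb5 at 0.61, and Cd44, a hyaluronan receptor, at -1.01 was past 2-fold lower. Of 11 in beta cells, 8 stood above and none was past 2-fold, with Cd44 at 0.69, Ddr1, a collagen receptor, at 0.22, Itgav, an integrin chain, at -0.06 and Sdc2, a syndecan, at -0.33. Among turnover genes, 5 of 8 stood above the median in endothelial cells. Timp3, a matrix-bound inhibitor of metalloproteases, was at 524 and 923 CPM there (0.77, 0.63 to 0.91). Timp1 was lower at -1.21 (-2.18 to -0.38), the 1 of 8 past 2-fold. Timp1 had 48 chow and 15 HFD UMIs there and reached the minimum only through the chow library, so nothing is read from that call. Ctsb, a lysosomal protease, stood at -0.32. In mesenchymal cells Timp1 stood at -0.89 and Adamts1, a proteoglycan-cutting protease, at 0.83, and none of 8 was past 2-fold. Over all beta cells Timp1 stood at 2.57 (39 and 198 UMIs), the 1 of 8 past 2-fold there, beside summed fibroblast markers of 0.402 and 3.38 CPM, 4 of 6 and 5 of 6 detected with Pdgfra at 0 in both and up to 156 UMIs in a single HFD cell. In beta cells that met no vascular rule Timp1 had 38 and 39 UMIs and stood at 0.29 (-0.40 to 0.97), and none of 7 was past 2-fold. Ctsb stood at -0.46 and Timp2 at -0.03 over all beta cells.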

How the data were processed

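Per the labels, single cell 3' v2 libraries (10x Genomics) were made from pooled islets, 1 library per diet. The deposited files hold raw UMI counts per gene and barcode, and the submitters' processing notes list Cell Ranger 2.1.0. Genome build, annotation and strand setting: not given in the sources used here.

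Barcodes with under 500 genes or over 10% mitochondrial UMIs were removed (122 chow, 145 HFD). The Scrublet threshold of scanpy 1.11.5 marked 2 and 1 barcodes and so had not worked, and the highest 5% of scores were removed instead (277 and 206). Classes were assigned in this order: beta from 20% Ins1 and Ins2 UMIs, alpha from 5% Gcg, endothelial from 10 UMIs of Plvap, Kdr and Flt1, mesenchymal from 5 UMIs of Pdgfrb, Bgn and Des. The remainder was split into delta (5% Sst), PP (5% Ppy), macrophage (10 UMIs of Lyz2, C1qa and Cd74), acinar (5% Cpa1, Cpb1 and Ctrb1) and ductal cells (5 UMIs of Krt19, Sox9 and Spp1). Values of 1 further small class, of 1 chain and of 1 gene of another list are not reported here, but all enter the counts. UMIs were summed per class and library, with exact Poisson intervals for levels, Clopper-Pearson intervals for shares and exact conditional binomial intervals for ratios. TMM factors came from edgeR 4.0.16. The calculation was tested on simulated data. All chains are members by their symbol, chains from 20 UMIs are described by class, chains from 50 UMIs in a class by diet, and from each other list the 2 most counted genes and the highest and lowest ratio are named. The members, gene lists and rules were chosen with earlier results of these data known. Overlaps and neighbours come from GENCODE M21, which held all 55 identifiers.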

Additional observations from a re-analysis of the deposited data

Results flagged for a closer look

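Some classes were too small for the comparisons above, or held cells that met no rule, and 4 values of 3 chains in them were higher than in every class compared, on at least 10 UMIs. In the 32 ductal cells, Lamb3 was at 30.7 CPM (15.3 to 54.9), Lama5 at 30.7 CPM (15.3 to 54.9) and Col27a1 at 27.9 CPM (13.4 to 51.3). Lama5 and Col27a1 had lower bounds under the best compared class, at 24.9 and 17.9 CPM, and Lamb3 was at 0.150 CPM in its best compared class. In the 195 unclassed cells, Col27a1 was at 25.7 CPM (18.5 to 34.7).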

How the results depend on the processing

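No paired analysis was possible because each diet has 1 library. Of the 117 endothelial, 156 mesenchymal and 234 beta-cell values of single chains recomputed under 13 alternatives, 117, 145 and 218 moved by less than their counting interval, and 113, 151 and 223 kept their sign. The medians over the chains stayed within such limits in each class. The alternatives that left out cells of a vascular rule, the richest fibrillar cells or 1 leaning of the mesenchymal class were chosen after seeing the data. With beta cells of a vascular rule left out, Col1a2 went to -0.13 and Col1a1 to -0.67 in beta cells, both under the minimum count. The number of chains past 2-fold went from 7 to 2. That number was 1 with cells thinned to 3500 UMIs, 11 with a minimum of 20 UMIs and 24 with none. In endothelial cells it was 1 with a minimum of 20, 14 with none and 2 at 1.5-fold. In mesenchymal cells it was 2 when thinned, 2 without the richest fibrillar cell, 2 with plain CPM ratios and 8 with no minimum. The share of all genes past the fold was not computed for thinned cells, other minimums, plain CPM ratios or 1.5-fold. Nothing about the chains is therefore read from those counts. With hormone genes left out of CPM, beta cells led 4 chains, and 3 of 37 leading classes differed, those of Col4a4 and Col28a1 among them. Thinning changed 2, that of Lamb2 among them. Depth limits the chains under 20 UMIs and the 35 and 50 mesenchymal cells most.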
